A study of Rattus norvegicus with 4 samples.

Results

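The genes described here are the rat zinc finger genes whose symbols start with Zbtb, Zfp or Znf, measured in PC12 cells with and without a MAX expression plasmid. A probe was counted when its RefSeq accession belonged to such a gene, Zbtb17 excepted, and when 2 or more of the 4 arrays had it flagged by the scanner software as well above background. This gave 68 genes, of 25356 genes tested and of 71 such genes with a named probe, with 83 of 87 probes kept. None of the 68 carried a Znf symbol, 11 were Zbtb genes and 57 were Zfp genes. PC12 is a rat line grown from a pheochromocytoma, which is a tumour of the chromaffin cells that make catecholamines in the adrenal medulla. It is known to lack a functional MAX protein. The first group was transfected with a plasmid that codes for MAX and the second with an empty vector, and both lines were then kept under E418 selection. Cells of either line were collected at passages 8 and 13, and each sample was read on 1 one-colour array, so the 2 replicates of a group are passages of a single line. Which replicate is which passage is not given in the sources used here. The p-values thus measure the spread between these samples and not between independent transfections.

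Cys2His2 zinc fingers are small folds around a zinc ion that read DNA bases, and proteins with strings of them are the largest class of mammalian transcription factors. Zbtb proteins add a BTB domain, through which they pair up and many of them recruit NCOR corepressors. Many other zinc finger proteins instead add a KRAB domain, which recruits TRIM28 and, through it, the histone methyltransferase SETDB1. Some genes with a Zfp symbol do not encode transcription factors: the Zfp36 family binds AU-rich elements of messenger RNA and speeds its decay, and Zfp207 encodes a protein of the mitotic spindle. MAX pairs with MYC proteins on the DNA sequence CACGTG, called the E-box. ZBTB17, left out here, is the zinc finger protein best known for binding MYC directly.

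The share of the 41012 probes flagged as well above background ranged over the arrays between 64.3% and 71.4%, and the number of arrays limits the precision. Of 9 chromaffin markers, 8 were measured, and the catecholamine enzyme genes Th and Ddc were well above background on all 4 arrays, while Dbh and Slc18a1 were so on 3. The markers differed between the lines: 2 of the 8 passed in limma, against 0.84% of all genes, with Th higher (log2 fold change 2.15 ± 0.11, adjusted p = 0.0203) and Ddc lower (-1.08 ± 0.08, adjusted p = 0.0391). The 2 directions were not balanced: 6 of the 8 had a log2 fold change below 0 and 2 above it, with a median of -0.47. Phox2a was among the lower ones (-0.74 ± 0.10, adjusted p = 0.0864). Of 19 markers of fibroblasts, macrophages, Schwann cells and endothelium, 12 were measured and 0 passed, while 5 had an unadjusted p under 0.05, against 16.1% of all genes. Of these 5, 4 were higher with the MAX vector, namely the endothelial Kdr (1.98 ± 0.23, adjusted p = 0.0701), the macrophage markers Lyz2 (1.32 ± 0.15, adjusted p = 0.0674) and Cd14 (0.82 ± 0.12) and the fibroblast marker Dcn (0.75 ± 0.13), and 1, the fibroblast marker Lum, was lower (-1.19 ± 0.27). The mean log2 signal of the 4 measured macrophage markers was -1.79 and -1.29 with the MAX vector and -2.23 and -2.16 with the empty vector. The mean over all 12 was -1.92 and -1.56 with the MAX vector and -2.01 and -1.86 with the empty vector, so the groups overlapped. These genes were named after their values were seen, and their part in the results below was not tested. One array, MAX vector replicate 1, was hybridised on a slide of its own, and the other 3 shared a slide.

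None of the 68 genes passed the test: 0 were higher and 0 lower at an adjusted p of 0.05 in limma, against 0.84% of all genes tested (0.576% higher and 0.264% lower). With normexp background correction 2 of the 68 passed, against 3.13% of all genes, and with a variance that depends on signal level again 2, against 3.77%, as given below for Zfp467 and Zfp36l1. At an unadjusted p under 0.05 there were 12, of which 10 were higher and 2 lower with the MAX vector, against 16.1% of all genes (7.93% higher and 8.21% lower). The smallest adjusted p was 0.117, for Zfp36l1. The log2 fold changes lay between -0.62 (Zfp36l1) and 0.76 (Zfp467), so 0 of 68 had a fitted change past 2-fold, against 3.42% of all genes. A fitted change past 1.5-fold was seen for 3 of 68, namely Zfp467, Zbtb16 and Zfp36l1, against 9.71% of all genes. Every array had all 68 flagged as well above background, so the 22822 tested genes with the same flags are the closer measure: 1.88% of them had a fitted change past 2-fold and 6.57% past 1.5-fold. With 2 arrays per group, a p that misses the threshold does not show that a gene's level was the same in both lines, so the intervals are given. They too rest on a single line per group, and do not bound the difference that another transfection would give. The 95% interval of the log2 fold change lay wholly within 2-fold either way for 64 of 68 genes, against 82.5% of all genes and 88.6% of those above background on every array. The other 4 were Zfp467, Zfp36, Zfp52 and Zfp483.

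**Figure D1:**
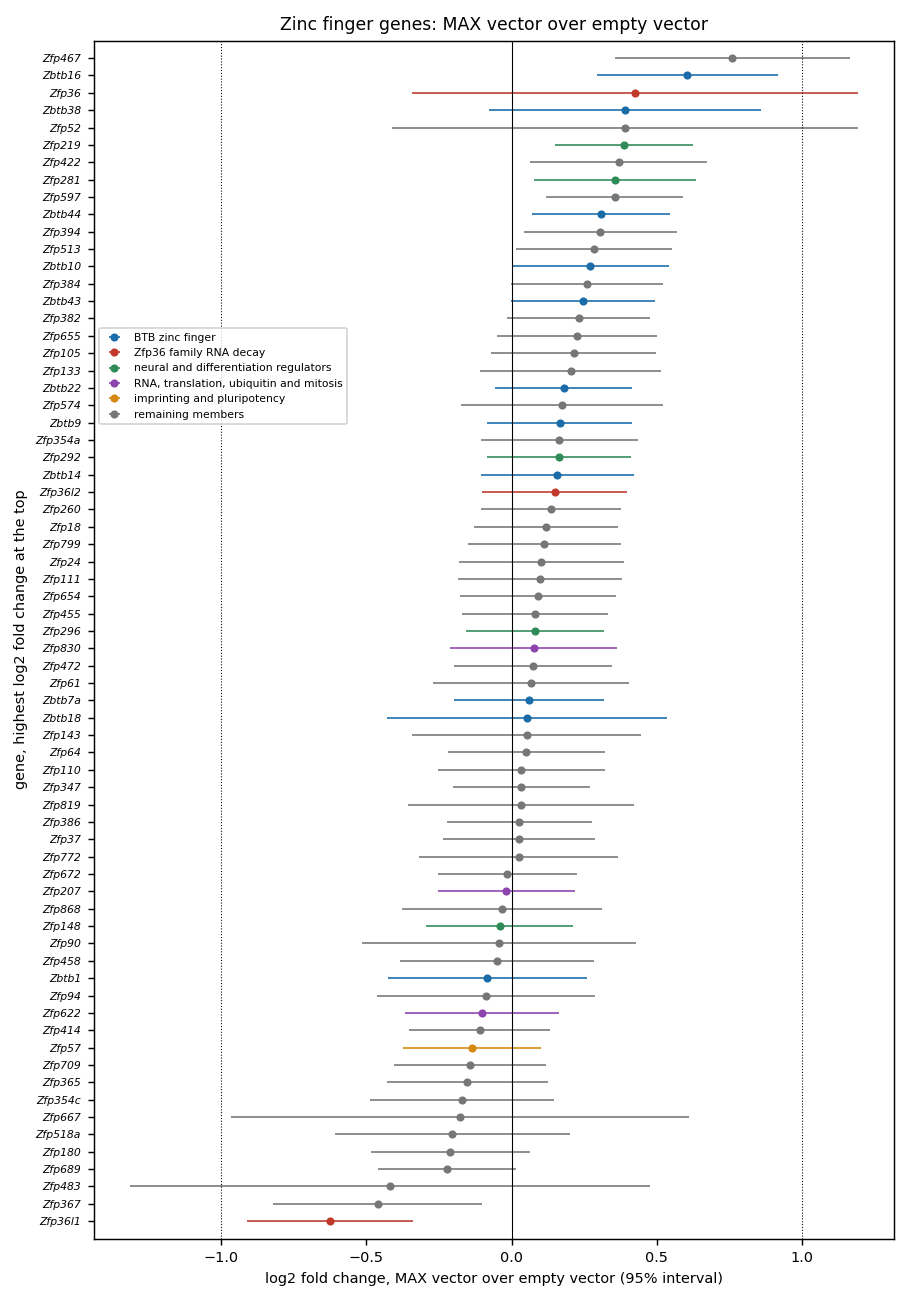
Log2 fold change of each of the 68 genes, MAX vector over empty vector, with its 95% interval from limma; colours give the role, and dotted lines mark 2-fold. The points run from 0.76 (Zfp467) at the top to -0.62 (Zfp36l1) at the bottom, and 64 intervals lie between the dotted lines.

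The replicates of these genes lay close together. The median absolute difference between replicates was 0.09 on the log2 scale with the MAX vector and 0.08 with the empty vector, against 0.15 and 0.12 over all genes tested and 0.14 and 0.11 over those above background on every array. The median SE of a log2 fold change was 0.10 for the 68 genes, with a range from 0.08 to 0.32, against 0.12 over all genes and 0.11 over those above background on every array. All 68 were well above background on every array by the probe used, so no value here is a bound.

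The fold changes lay more often above 0 than below it. Of the 68 genes, 47 had a log2 fold change above 0, against 46.5% of all genes tested, and the median was 0.08, against -0.02 over all genes. Among the genes above background on every array, 48.0% were above 0, with a median of -0.01. Among the tested genes with a symbol, 49.0% were above 0, with a median of -0.0045. With each gene's own mean over the 4 arrays set to 0, the median of the 68 genes was 0.06 and 0.04 on the MAX vector arrays and -0.05 and -0.06 on the empty vector arrays. Over all genes tested, the same medians were -0.02 and 0.01 with the MAX vector and -0.0013 and 0.02 with the empty vector. Without this centring the medians of the 68 overlapped between the groups. They were -0.42 and -0.46 with the MAX vector and -0.42 and -0.57 with the empty vector. Both MAX vector arrays were above both empty vector arrays for 33 of the 68 genes, against 24.2% of all genes, and below both for 10, against 26% of all genes. The remaining 25 of the 68 overlapped between the groups. Of the 22822 genes above background on every array, 5807 were higher and 5942 lower without overlap. These counts describe the genes on these arrays. They are not a test, since the genes share the same 4 RNA samples.

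**Figure D2:**
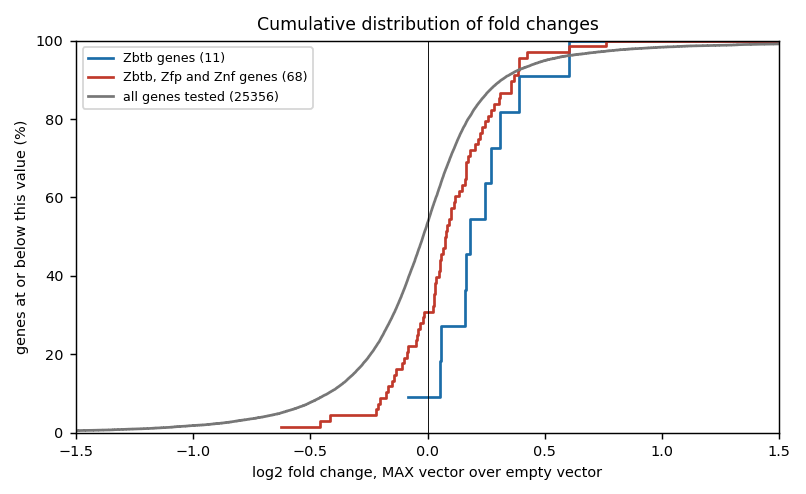
Cumulative distribution of log2 fold changes (MAX vector over empty vector) for the 11 Zbtb genes, all 68 zinc finger genes and all 25356 genes tested. The curves of the zinc finger genes lie to the right of that of all genes around 0, with medians of 0.18, 0.08 and -0.02.

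The 11 Zbtb genes had log2 fold changes from -0.08 (Zbtb1) to 0.61 (Zbtb16), with a median of 0.18, and 10 of the 11 were above 0. None passed (0 higher, 0 lower), and 3 had an unadjusted p under 0.05, all higher (Zbtb16, Zbtb44 and Zbtb10), against 16.1% of all genes (7.93% higher). The median was 0.10 when the background was corrected with normexp. That setting adds 50 signal units to every spot, which draws folds of dim probes toward 1. It also uses the median spot signal and another background step. Their shares in the smaller median were not tested. Both MAX vector arrays were above both empty vector arrays for 8 of the 11, against 24.2% of all genes, and below both for 0, against 26%. The other 3 overlapped (Zbtb1, Zbtb18 and Zbtb7a).

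Zbtb16 encodes PLZF, a BTB protein known for its fusion to the retinoic acid receptor alpha in a form of promyelocytic leukaemia. Its log2 signal, relative to each array's 75th percentile, was -4.84 and -4.63 with the MAX vector and -5.34 and -5.33 with the empty vector. Both MAX vector values were above both empty vector values, with a gap larger than either group's spread. The fold change was 1.52 (log2 0.61 ± 0.11, SE; 95% interval 0.29 to 0.92; adjusted p = 0.137). The signal is dim, and with normexp the log2 fold change was 0.23. The gene's other probe was well above background on 0 of the 4 arrays and was left out.

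Zbtb38, which encodes a BTB protein that binds methylated CpG, had 0.35 and 0.05 with the MAX vector and -0.05 and -0.33 with the empty vector. The groups did not overlap, but the replicates of each lay almost as far apart as the group means (log2 fold change 0.39 ± 0.17, 95% interval -0.08 to 0.86, adjusted p = 0.373). Without MAX vector replicate 1 it was 0.24, and without empty vector replicate 2 it was 0.25. Zbtb44 had -3.11 and -3.14 with the MAX vector and -3.45 and -3.42 with the empty vector. Its replicates were among the closest (log2 fold change 0.31 ± 0.08, 95% interval 0.07 to 0.54, adjusted p = 0.234), while with normexp it had 0.12. Zbtb10 had -2.00 and -1.87 with the MAX vector, against -2.19 and -2.23 with the empty vector (log2 fold change 0.27 ± 0.10, adjusted p = 0.31).

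The other Zbtb genes showed smaller differences. Zbtb43, Zbtb22, Zbtb9 and Zbtb14 had log2 fold changes of 0.25, 0.18, 0.17 and 0.16, each with an interval that crossed 0. Zbtb14 encodes ZF5, which was first described as a repressor of the mouse Myc promoter. Its signals were -2.85 and -2.96 with the MAX vector and -3.08 and -3.04 with the empty vector. Zbtb7a, whose protein represses fetal globin genes in humans and mice, had 3.63 and 3.54 with the MAX vector and 3.49 and 3.56 with the empty vector. Its groups overlapped, and the 95% interval of -0.20 to 0.32 lay within 1.5-fold either way. Zbtb18, known in mice for its part in cortical neuron development, had -4.30 and -4.70 with the MAX vector, against -4.48 and -4.63 with the empty vector (log2 fold change 0.05 ± 0.17). Zbtb1, which mice need to make lymphocytes, had -1.26 and -1.5 with the MAX vector, against -1.33 and -1.26 with the empty vector (-0.08 ± 0.12). Both pairs of groups overlapped.

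None of the 3 Zfp36 genes, which encode messenger RNA decay factors, passed the test. Zfp36l1 had the lowest log2 fold change of the 68. Its log2 signal was 2.37 and 2.31 with the MAX vector, against 2.89 and 3.04 with the empty vector, and the groups were clearly apart. The log2 fold change was -0.62 ± 0.10 (SE, 95% interval -0.91 to -0.34, adjusted p = 0.117), a ratio of 0.649. It passed with normexp (-0.56, adjusted p = 0.0222), where 1.44% of all genes were called lower, and when limma's variance was let vary with signal level (adjusted p = 0.0198), where 1.62% of all genes were called lower. The value lay between -0.70 and -0.55 with any 1 array left out.

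Zfp36l2 had 5.24 and 5.16 with the MAX vector and 5.07 and 5.03 with the empty vector. The MAX vector arrays were the higher ones, by a small margin (log2 fold change 0.15 ± 0.09, 95% interval -0.10 to 0.40, adjusted p = 0.495). Its dimmer probe gave 0.41. Zfp36, which encodes tristetraprolin, the founding member of the family, had -3.43 and -2.85 with the MAX vector and -3.79 and -3.34 with the empty vector. Here the replicates differed by more than the group means, and the groups overlapped (log2 fold change 0.43 ± 0.27, 95% interval -0.34 to 1.19, adjusted p = 0.518). Leaving out 1 array gave between 0.14 (without MAX vector replicate 2) and 0.72 (without MAX vector replicate 1).

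**Figure D3:**
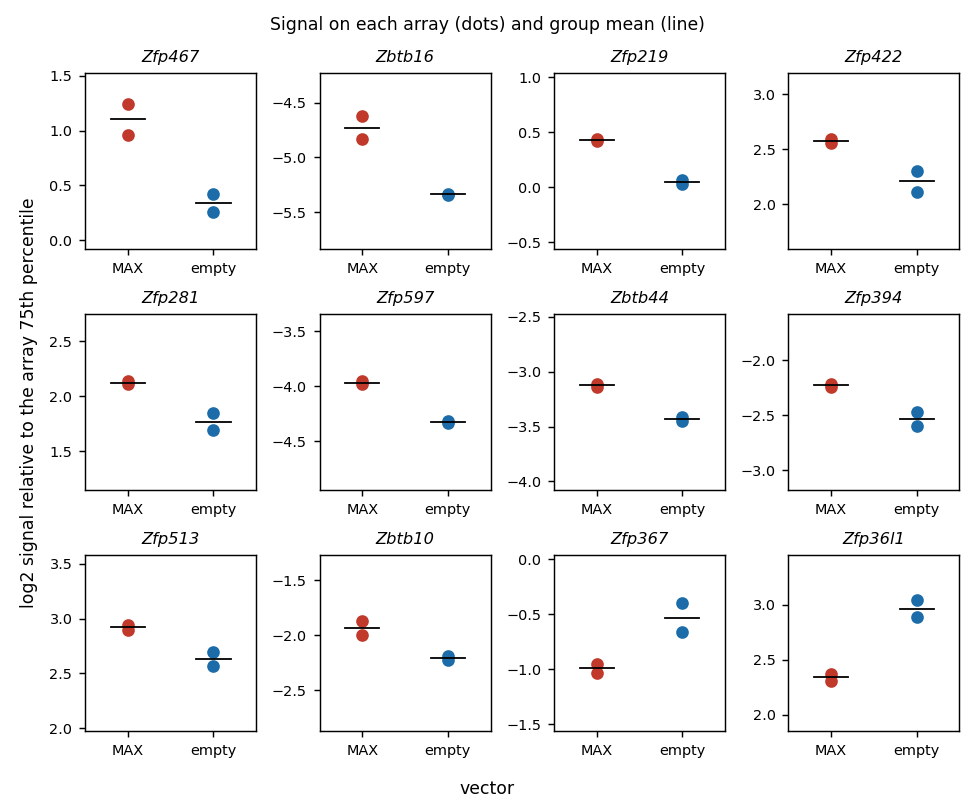
Log2 signal relative to the array's 75th percentile on each array (dots) and the group mean (line) for the 12 genes with an unadjusted p under 0.05, MAX vector at left and empty vector at right; every panel spans the same height in log2 units, centred between the group means. In 10 panels both MAX vector dots lie above both empty vector dots, and in the panels of Zfp36l1 and Zfp367 they lie below.

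Zfp467 had the highest log2 fold change of the 68. It encodes a zinc finger protein known in mice to favour fat cells over bone-forming cells. Its log2 signal was 1.24 and 0.96 with the MAX vector, against 0.43 and 0.26 with the empty vector, so the groups did not overlap. The gene was 1.69-fold higher by this probe (log2 fold change 0.76 ± 0.14, SE, 95% interval 0.36 to 1.16, adjusted p = 0.141). It passed with normexp (0.71, adjusted p = 0.0101), where 1.69% of all genes were called higher, and with a variance that depends on signal level (adjusted p = 0.0326), where 2.14% of all genes were called higher. A further probe for the gene gave another picture. It was well above background on 3 of the 4 arrays, with -5.65 and -5.63 with the MAX vector and -5.38 and -5.94 with the empty vector, and a log2 fold change of 0.02. With the mean of both probes the gene had 0.39, so the difference rests on 1 probe.

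Among 5 genes listed as neural and differentiation regulators, Zfp219 and Zfp281 had an unadjusted p under 0.05, both higher, against 7.93% of all genes. Zfp219, whose protein is a partner of SOX9 in mouse cartilage, had 0.44 and 0.42 with the MAX vector, against 0.06 and 0.02 with the empty vector. The gap between the groups was many times the replicate spread (log2 fold change 0.39 ± 0.08, 95% interval 0.15 to 0.62, adjusted p = 0.172). Zfp281, a pluripotency regulator of mouse embryonic stem cells, had 2.14 and 2.11 with the MAX vector and 1.69 and 1.85 with the empty vector (0.36 ± 0.10, 95% interval 0.08 to 0.64, adjusted p = 0.239). Zfp148, a GC-box binding factor closely related to Zfp281, had 2.63 and 2.69 with the MAX vector, against 2.67 and 2.74 with the empty vector. Its groups overlapped, and its log2 fold change was -0.04 ± 0.09. Zfp292 and Zfp296 had 0.16 and 0.08, with intervals that crossed 0.

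The genes of RNA, translation, ubiquitin and mitosis had the smallest median absolute log2 fold change of the role groups, at 0.08. Zfp207, which encodes a spindle and kinetochore protein also called BuGZ, had 4.69 and 4.66 with the MAX vector and 4.68 and 4.71 with the empty vector. The log2 fold change was -0.02 ± 0.08, with a 95% interval of -0.25 to 0.22, and it was above 0 under median scaling, quantile normalization and normexp. Zfp622 had 2.16 and 2.24 with the MAX vector, against 2.25 and 2.35 with the empty vector (-0.10 ± 0.10), and was thus lower on both MAX vector arrays by a small margin. Zfp830 had 2.52 and 2.60 with the MAX vector, against 2.41 and 2.56 with the empty vector (0.08 ± 0.10), and its groups overlapped. Zfp57, which keeps DNA methylation at imprinted regions in mice, was lower on both MAX vector arrays, at 0.32 and 0.35, than on both empty vector arrays, at 0.45 and 0.49, with a log2 fold change of -0.14 ± 0.09 (adjusted p = 0.508).

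Of the remaining 45 Zfp genes, 30 had a log2 fold change above 0, against 46.5% of all genes, and the median was 0.05. An unadjusted p under 0.05 was found for 6 (13.3%), against 16.1% of all genes, so the number is no larger than the background share. Of these 6, 5 were higher, namely Zfp467, Zfp422, Zfp597, Zfp394 and Zfp513, and 1, Zfp367, was lower. Zfp422 had 2.56 and 2.59 with the MAX vector and 2.11 and 2.30 with the empty vector, and its 2 probes gave 0.37 and 0.31. Zfp597 had -3.98 and -3.95 with the MAX vector, against -4.33 and -4.31 with the empty vector (log2 fold change 0.36 ± 0.08, adjusted p = 0.194). In Zfp422 and Zfp597 the replicates of the MAX vector group lay close to each other and above both empty vector replicates.

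Zfp367 had -0.95 and -1.04 with the MAX vector, against -0.40 and -0.66 with the empty vector. Both MAX vector arrays were lower, and the empty vector replicates were the more spread (log2 fold change -0.46 ± 0.13, 95% interval -0.82 to -0.10, adjusted p = 0.237). Its dimmer probe gave -0.24. Zfp689 and Zfp180 were also lower on both MAX vector arrays, with log2 fold changes of -0.22 ± 0.085 and -0.21 ± 0.10 and intervals that crossed 0.

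For Zfp483 and Zfp52, near the ends of the order, 1 array set much of the value. Zfp518a and Zfp354c moved too, but stayed below 0 with any 1 array left out. Zfp483 had -4.33 and -3.49 with the MAX vector, against -3.39 and -3.60 with the empty vector, so 1 MAX vector array was low and the other lay among the empty vector arrays. Its log2 fold change of -0.42 ± 0.32 was 0.00 without MAX vector replicate 1. Zfp52 had -4.46 and -3.71 with the MAX vector, against -4.57 and -4.38 with the empty vector, and its 0.39 ± 0.29 was 0.02 without MAX vector replicate 2 and 0.76 without MAX vector replicate 1. Zfp518a, at -2.93 and -3.02 with the MAX vector and -2.61 and -2.93 with the empty vector, overlapped between the groups (-0.20 ± 0.15), and had -0.04 without empty vector replicate 1, -0.36 without empty vector replicate 2 and -0.03 with normexp. Zfp354c, at -2.66 and -2.54 with the MAX vector and -2.52 and -2.34 with the empty vector, came close to overlapping (-0.17 ± 0.11), with -0.08 without empty vector replicate 2, -0.11 without MAX vector replicate 1 and -0.26 without empty vector replicate 1.

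Other genes lay near 0. Zfp110 encodes NRIF, a protein that binds the p75 neurotrophin receptor. It had -1.59 and -1.44 with the MAX vector and -1.51 and -1.59 with the empty vector, a log2 fold change of 0.03 ± 0.10. Zfp90 had -1.56 and -1.17 with the MAX vector, against -1.26 and -1.39 with the empty vector (-0.04 ± 0.17). The groups of both genes overlapped. Zfp386 had 3.71 and 3.79 with the MAX vector and 3.72 and 3.73 with the empty vector (0.03 ± 0.09), and Zfp36l2, Zfp207 and Zfp386 gave the highest probe signals of the 68, which do not rank their transcripts.

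Genes next to each other in the RefSeq order were not uniform. Zfp260 and Zfp382, direct neighbours, had 0.13 and 0.23, and Zfp655 and Zfp394, with 1 gene between them, had 0.23 and 0.31. In the cluster that holds Zfp180, Zfp111, Zfp61 and Zfp94, the log2 fold changes were -0.21, 0.10, 0.07 and -0.09. Genes in such clusters are often close copies, so a probe may also have bound transcripts of a neighbour. Which member gave the signal is uncertain for them.

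Where 2 probes of a gene passed the detection rule, they gave the same sign for 12 of 15 genes. The exceptions were Zbtb22 (0.18 by the brighter and -0.08 by the dimmer probe), Zfp868 (-0.03 and 0.11) and Zfp667 (-0.18 and 0.52). The dimmer Zfp667 probe was well above background on 2 of the 4 arrays, just inside the rule, with -5.44 and -5.42 with the MAX vector and -5.86 and -6.05 with the empty vector. Just outside it, the Zbtb25 probe was well above background on 1 array, with -6.86 and -6.24 with the MAX vector and -5.99 and -6.38 with the empty vector. The probes of Zfp385d and Zfp494 were so on 0 arrays.

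**Figure D4:**
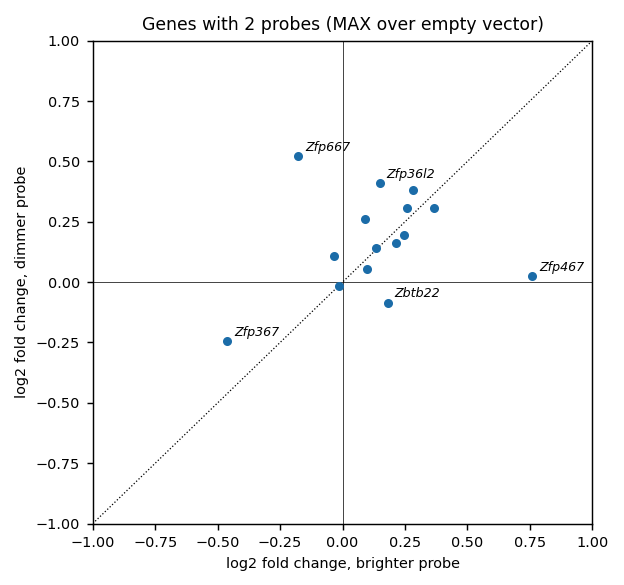
Log2 fold change (MAX vector over empty vector) by the brighter and the dimmer probe for the 15 genes with 2 probes that passed; the dotted line marks equal values, and genes whose probes differ by over 0.2 are named. Most points lie near the line, with Zfp467 (0.76 and 0.02) and Zfp667 (-0.18 and 0.52) farthest from it.

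Promoter windows from RefSeq (build GRCr8, 250 bases before to 50 after the gene's start) were matched for 57 of the 68 genes and searched for the E-box CACGTG, which reads the same on both strands. It was found in 6 of the 57 (10.5%), namely Zfp18, Zfp207, Zfp292, Zfp296, Zfp365 and Zfp819. The share was 9.34% of the 5149 tested genes with a window and 7.08% of all 27457 genes with a window. In these shares a gene was counted when any of its windows held the E-box. Counted by window, it was in 6.42% of all 33469. The 6 genes had log2 fold changes between -0.15 and 0.16 (median 0.06), and the 51 others between -0.62 and 0.76 (median 0.07). Over all tested genes with a window, the medians were 0.0028 with an E-box and -0.0035 without one. The windows of the matched genes with the highest and the lowest log2 fold change, and of both ends of the E-box group, are given so that they can be compared, in lower case with each E-box in capitals. A match is a description of the letters and not of binding.
Zfp467 promoter, highest log2 fold change, chr4:78723086-78723385, minus strand: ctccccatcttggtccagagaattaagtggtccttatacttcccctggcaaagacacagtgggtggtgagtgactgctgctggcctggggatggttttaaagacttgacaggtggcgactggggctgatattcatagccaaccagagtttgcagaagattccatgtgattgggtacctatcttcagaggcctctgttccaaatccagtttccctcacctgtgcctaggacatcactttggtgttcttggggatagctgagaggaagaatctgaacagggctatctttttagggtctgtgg
Zfp36l1 promoter, lowest log2 fold change, chr6:104668641-104668940, minus strand: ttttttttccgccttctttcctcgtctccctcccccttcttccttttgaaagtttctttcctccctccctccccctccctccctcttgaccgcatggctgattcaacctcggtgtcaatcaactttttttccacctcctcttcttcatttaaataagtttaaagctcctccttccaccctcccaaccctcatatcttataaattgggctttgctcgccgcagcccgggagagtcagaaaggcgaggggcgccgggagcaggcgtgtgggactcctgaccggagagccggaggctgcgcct
Zfp292 promoter, highest of the E-box group, chr5:54264389-54264688, minus strand: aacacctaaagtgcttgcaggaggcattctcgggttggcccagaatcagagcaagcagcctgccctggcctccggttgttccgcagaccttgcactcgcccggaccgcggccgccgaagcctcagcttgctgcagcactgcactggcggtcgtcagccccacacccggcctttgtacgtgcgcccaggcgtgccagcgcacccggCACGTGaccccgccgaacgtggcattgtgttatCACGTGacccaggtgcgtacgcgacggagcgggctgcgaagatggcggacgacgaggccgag
Zfp365 promoter, lowest of the E-box group, chr20:20664872-20665171, plus strand: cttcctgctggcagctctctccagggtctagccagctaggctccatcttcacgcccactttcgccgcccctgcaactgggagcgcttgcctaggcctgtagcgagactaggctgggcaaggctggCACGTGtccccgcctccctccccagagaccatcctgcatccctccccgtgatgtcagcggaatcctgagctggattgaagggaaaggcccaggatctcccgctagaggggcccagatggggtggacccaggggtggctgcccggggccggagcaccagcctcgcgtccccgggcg

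The Zfp292 window holds 2 E-boxes, whose first bases lie 45 and 12 bases before the start, and the Zfp365 window holds 1, at 125 bases before it. Zfp292 had -1.77 and -1.84 with the MAX vector, against -1.94 and -1.99 with the empty vector (log2 fold change 0.16 ± 0.09). Zfp365, which encodes a coiled-coil protein with a zinc finger, had 1.77 and 1.68 with the MAX vector, against 1.82 and 1.94 with the empty vector (-0.15 ± 0.10). The groups of each gene did not overlap, in opposite directions, and both intervals crossed 0. The letters CACGTG are in neither the Zfp467 nor the Zfp36l1 window.

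Related genes outside the symbol rule were read from 4 lists: BTB zinc finger genes under other symbols, KLF and SP genes, corepressor partners and other Cys2His2 regulators. Of their 81 genes, 28 were measured and 0 passed in limma, against 0.84% of all genes. The unadjusted p was under 0.05 for 8 of the 28, against 16.1% of all genes. The 10 measured KLF and SP genes held 5 of these 8, of which 3 were higher and 2 lower. Klf15, a glucocorticoid-induced metabolic regulator, had -3.23 and -3.70 with the MAX vector, against -5.78 and -5.47 with the empty vector (log2 fold change 2.16 ± 0.22, adjusted p = 0.0559). At an unadjusted p under 0.05, Klf9 was higher too (0.45 ± 0.09), and Klf4 and Klf6 were lower (-0.67 ± 0.12 and -0.37 ± 0.09). Of 20 listed corepressor partners 6 were measured, and these, among them Hdac1 (0.15) and Ctbp1 (-0.08), lay between -0.08 and 0.15. The genes for NCOR, TRIM28 and SETDB1 were not among the measured ones, so these values do not describe them. Among 11 other Cys2His2 regulators, 3 had an unadjusted p under 0.05, against 16.1% of all genes, with 1 higher and 2 lower. The lower ones were Plagl1 (-1.06 ± 0.21, adjusted p = 0.15) and Snai1 (-0.40 ± 0.11, adjusted p = 0.224). Gfi1 was the higher one (0.69 ± 0.18, adjusted p = 0.216). The range of the KLF and SP genes, from -0.67 to 2.16, was wider than that of the 68 Zbtb and Zfp genes, from -0.62 to 0.76, though the difference in range was not tested. Its upper end is Klf15 alone, a dim probe, and the next highest KLF or SP gene was Klf9 at 0.45.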

How the data were processed

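The deposited scanner files hold spot intensity from Agilent Feature Extraction 10.7.3.1 (10.7 in the submitters' processing notes), with design annotation of build rn4; per the file headers, the processed intensity has background and spatial trend removed array by array, with no scaling from one array to another. The authors' deposited value table holds log2 values, whose differences between arrays equalled those of the log2 processed signal less the 75th percentile of its array (Pearson r = 1); its scale and direction are thus known, and each probe's centring is not. Its column medians were -0.00536 and -0.00645 with the MAX vector and -0.0332 and -0.0107 with the empty vector.

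Controls and outlier spots (89 to 140 per array) were left out, spots of the same probe were averaged on the log2 scale, and the 75th percentile of the array over 40923 probes (590 to 700.5 signal units) was subtracted. Probes were named by RefSeq accession through the gene table of assembly GRCr8; 6316 of 25356 genes tested had a symbol. Tests used probes flagged as well above background on 2 or more arrays, with the brightest probe per gene, in limma 3.58.1 (R 4.3.3), with Benjamini-Hochberg adjustment over all genes, a threshold of 0.05 and 3.94 total degrees of freedom; ± is the SE. The steps were tested on simulated data, where few 2-fold changes were called. Of simulated 2-fold changes, 8 of 335 (2.39%) passed, against 73.1% of 4-fold and 92.7% of 16-fold changes. These shares hold for the simulated settings only. The adjusted p depends on how many genes have a small p, and on the real arrays 16.1% of all genes had an unadjusted limma p under 0.05. The simulated shares thus do not give the chance that a real 2-fold change in a zinc finger gene would have passed. The members and lists were chosen with earlier results of these data known. Named genes are those that pass, the 8 largest and 8 smallest log2 fold changes, the 3 highest signals, the 3 highest and lowest Zbtb genes, the Zfp36 family, up to 2 per direction of each role list or other list, probes that differ and the edges of the detection rule; other members were named after their values were seen. The files hold no mean spot signal, so normexp used the median signal.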

Additional observations from a re-analysis of the deposited data

How the results depend on the processing

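With 4 arrays, 2 transfected lines and 14 alternatives, the counts of calls depended on the setting, and the Zbtb median on normexp. In limma, 213 of all genes tested passed, where 4091 had an unadjusted p under 0.05. The count was 794 with normexp, 541 with median scaling, 515 with probes well above background on all 4 arrays, 955 with a variance that depends on signal level, 8 with the slide as a block, and 0 with the replicate block or with no filter on dim probes (15.3% and 10.9% of genes at an unadjusted p under 0.05). Leaving out 1 array gave 0 to 144: 0 without either empty vector replicate, 8 without MAX vector replicate 1 and 144 without MAX vector replicate 2; the lone array of a group is then assumed to vary like the other group. The replicate numbers do not pair the samples by any label (correlation of the replicate differences -0.0178 over genes), and with the replicate block 0 of the 68 genes passed, with 11 at an unadjusted p under 0.05. Of the 68, 1 passed higher (Zfp467) and 1 lower (Zfp36l1) with normexp and again with the variance that depends on signal level, and 0 passed elsewhere. The median of the 68 lay between 0.06 and 0.11, against -0.03 to 0.03 for all genes. The Zbtb median was 0.10 with normexp, against 0.18. Of 406 values of 29 named genes under the alternatives, 18 changed sign, in 9 genes with small log2 fold changes or spread replicates. That share does not measure stability, since not every alternative could change a sign. The variance that depends on signal level, the replicate block and the changed filters on dim probes left these log2 fold changes as they were. The deposited value table nearly repeats the main fit, and the slide block repeats another alternative. With normexp Zbtb7a had -0.0015 and Zfp207 0.0758; Zfp207 had 0.0052 with quantile normalization and 0.0054 with median scaling. With the mean of a gene's probes Zfp667 had 0.17 and Zfp868 0.0372. With the slide as a block, which equals leaving out MAX vector replicate 1, Zbtb18 had -0.15, Zfp483 0.0036 and Zfp868 0.0917. Over the fits without 1 array, Zfp667 ranged from -0.47 to 0.11, Zfp830 from -0.00034 to 0.15, Zbtb18 from -0.15 to 0.25, Zbtb1 from -0.20 to 0.0377, Zfp386 from -0.0161 to 0.0698, Zfp483 from -0.84 to 0.0036 and Zfp868 from -0.16 to 0.0917. The cause of these changes was not tested.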
